A study of Mus musculus with 6 samples.

Results

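The regions described here are the Cbp peaks beside the centromeric ends of the mouse autosomes, taken as every peak of the deposited list that starts below 4 Mb on an autosome. They comprise 472 of the 4012 listed peaks (11.8%). Peaks sharing 1 bp or more were merged, which left 200 of 3014 regions (6.64%), while the first assembled Mb of each chromosome makes up 0.787% of the assembled autosome length. The peaks came from chromatin immunoprecipitation sequencing (ChIP-seq) in BM-HPC, a hematopoietic progenitor and stem cell line from mouse bone marrow of strain C57BL/6-cast, grown without treatment in stem cell factor and human IL-6. There was 1 library with a rabbit polyclonal Cbp antibody and 1 control library with rabbit IgG. Whether BM-HPC is a single clone is not given in the sources used here, and the 4 samples of sorted bone marrow cells in the same series were not analysed here.

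Cbp (CREB-binding protein) is a transcriptional co-activator and lysine acetyltransferase that transcription factors bring to enhancers and promoters. Mouse chromosomes carry the centromere at the end where numbering begins, and the satellite repeats of the centromere and of the neighbouring heterochromatin are left as a gap in the assembly, so that assembled sequence begins at about 3 Mb. Copies of satellite and other repeats that are missing from an assembly can give reads that align to the few copies it holds. An IgG control precipitates chromatin without a specific target and shows how many reads a place yields regardless of the factor.

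The Cbp library held 9770169 reads and the IgG library 8068592, each deposited as intervals of 200 bp. Of the nuclear reads, 3.87% in Cbp and 14.6% in IgG repeated an interval already present. Counting each interval once left 9388703 Cbp and 6886428 IgG reads. The ratios below are Cbp over IgG reads divided by 1.36, the number of Cbp reads per IgG read outside all peaks, so that 1 means no difference. With all copies kept the divisor is 1.21. With 1 library per antibody there are no replicates, and the 95% intervals and tests cover counting error only and compare the libraries. With all copies kept, copies of an interval enter as separate reads. Whether they are separate molecules was not tested, so those intervals and tests may overstate the certainty.

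Peak regions crowded the first Mb far more than the Mb after it. The 200 regions below 4 Mb were followed by 23 regions between 4 and 5 Mb over the same 19 autosomes. The 9 steps of 1 Mb from 4 to 13 Mb held 8 to 23 regions each, with a median of 17. The last Mb of the autosomes, at the telomeric end, held 38. Crowding thus marked the centromeric end and fell off within the first Mb. Of the 200 regions, 112 (56%) started within 50 kb of the 3 Mb mark, 153 (76.5%) within 100 kb and 190 (95%) within 500 kb. The boundary at 4 Mb cut through a sparse stretch. The last peaks inside it were chr12:3797828-3798227, with 8 Cbp and 6 IgG reads, and chr11:3794950-3795349, with 19 and 2. The first outside were chr11:4060097-4060496, with 19 and 3, and chr7:4088907-4089306, with 22 and 5.

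The autosomes contributed unequally. Chromosome 11 held 62 regions, chromosome 9 held 38, chromosome 17 held 27, chromosome 16 held 20 and chromosome 3 held 17. Chromosomes 4 and 18 held 8 and 7, chromosome 8 held 5, and the others with any held 1 to 3. No region lay on chromosomes 1, 7 and 15. A region measured 400 to 2008 bp, with a median of 410.5 bp. The widest, chr16:3235618-3237625, joined 10 peaks and held 127 Cbp and 76 IgG reads.

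**Figure D1:**
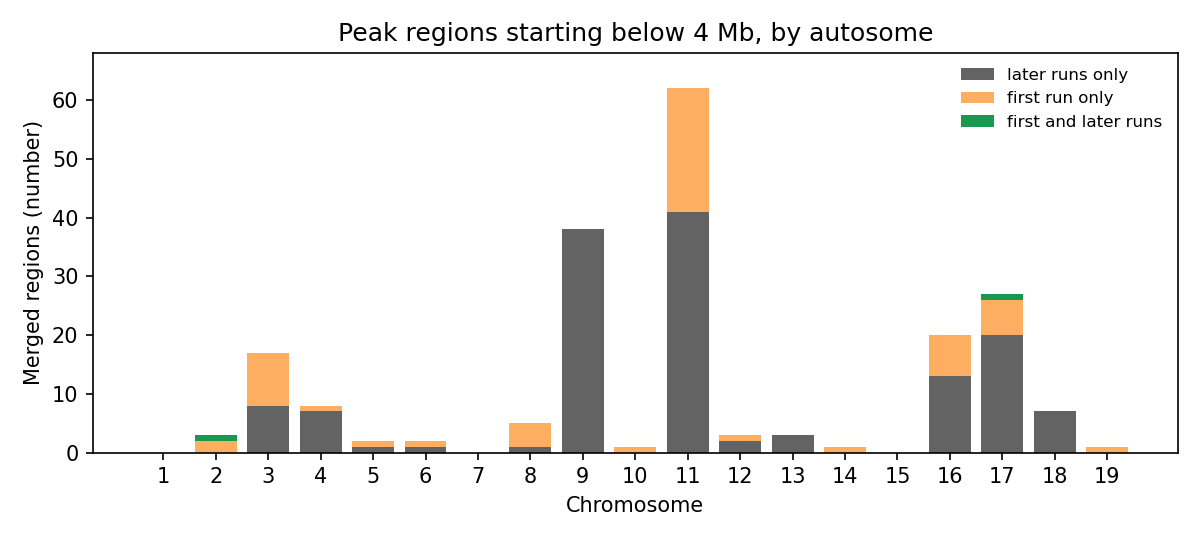
Merged regions starting below 4 Mb on each autosome (bars, number of regions), coloured by the run of the peak list that gave them. Chromosome 11 has 62 regions and chromosome 9 has 38, all of the latter from the later runs.

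The deposited list consists of 3 consecutive runs, and the chromosome starts belonged mostly to the later runs. Of the 472 peaks, 62 came from the first run (2.56% of its 2422 peaks), 212 from the second (26.3% of 806) and 198 from the last (25.3% of 784). The later runs are not separate evidence of each other: each of the 212 peaks of the second overlapped a peak of the last, typically shifted by a few bases (median 14.5 bp), and the reverse held for each of the 198. After merging, 142 regions came from the later runs only, 56 from the first run only and 2 from both. Chromosome 9 had no region from the first run. First-run peaks here held a median of 12 Cbp and 7 IgG reads, against 24 and 20 in the second run and 26 and 20 in the last.

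Both antibodies gave many reads in these regions, and the Cbp library did not exceed the control in sum. The 200 regions held 8639 Cbp and 6830 IgG reads, with medians of 30 and 22 per region. The ratio of the sums was 0.930 (0.900 to 0.960), and without chromosome 9 it was 1.06 (1.02 to 1.10), on the other side of 1. The 2814 regions elsewhere had medians of 10 Cbp and 2 IgG reads and a ratio of 1.92 (1.88 to 1.95). The chromosome starts therefore differed from other regions in both libraries, with the larger gap in IgG. Cbp exceeded the scaled IgG count in 101 of 200 regions (50.5%) at the starts and in 2590 of 2814 (92.0%) elsewhere. All these regions were listed as peaks of the same Cbp sample, so a ratio above 1 describes them and is not independent evidence. The 23 regions of the next Mb had a ratio of 4.89 (3.63 to 6.73), and the 38 of the last Mb 1.26 (1.12 to 1.42). Neither interval reaches that of all 200 regions at the starts, but without chromosomes 9 and 11 the starts had a ratio of 1.12 (1.06 to 1.20), which overlaps that of the last Mb.

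Part of this contrast goes with the run of the list. Later-run regions outside the chromosome starts, 486 in number, had a ratio of 1.04 (1.01 to 1.07), and those at the starts 0.889 (0.859 to 0.920). First-run regions had a ratio of 3.13 (3.05 to 3.22) elsewhere and 1.21 (1.11 to 1.32) at the starts. In the first run the ratio was thus lower at the starts, with intervals that did not overlap. Of the 56 first-run regions at the starts, 21 lay on chromosome 11, and the first-run ratio was not computed without it. In the later runs the lower ratio rested on chromosome 9, whose 38 regions all came from them. Without that chromosome the later-run ratio was 1.02 (0.973 to 1.06) over 104 regions at the starts and 1.04 (1.01 to 1.07) over 471 elsewhere, and these intervals overlapped.

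Across the 200 regions the libraries rose and fell together. Spearman's rho between Cbp and IgG counts was 0.924 counted once and 0.939 with all copies, and 0.919 over the 159 regions outside chromosomes 9 and 12. These are descriptions over regions that share the same libraries, region widths and, on a chromosome, neighbouring sequence.

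Chromosome 9 held the most reads when all copies were kept, and the tallest single stacks. Counted once, its regions held 2586 Cbp intervals, fewer than the 3398 of chromosome 11. Its 37 regions in chr9:2999918-3038602 filled a stretch of 38.7 kb with a median gap of 348 bp between regions. With all copies kept, this stretch held 22316 Cbp and 27160 IgG reads, or 89.3% and 93.0% of all reads in the chromosome's first Mb. Counting each interval once left 2749 and 2817, which were 19.2 and 27.0 times the autosomal median of 37 Cbp and 27 IgG reads per 10 kb. Over the 38 regions of the chromosome, an interval occurred 8.37 times on average in Cbp and 10.0 times in IgG, and at most 256 and 274 times. The ratio was 0.725 (0.686 to 0.766) counted once and 0.678 (0.666 to 0.691) with all copies. Both libraries were thus stacked in this stretch, the control more.

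The stacked intervals were largely the same ones in both libraries. Of the distinct Cbp intervals in the chromosome 9 regions, 2051 (79.3%) were also present in IgG with the same start and end, although IgG intervals occupied only 12.3% of the positions there. Beyond 4 Mb the same share was 0.351% to 0.639% over the 19 autosomes, with a median of 0.382%. IgG intervals occupied only 0.237% to 0.353% of the positions there, and each share is to be read against that filling. Stacks were not limited to the chromosome starts. Later-run regions elsewhere held 7.55 Cbp and 11.7 IgG copies per interval, more than the 3.49 and 4.99 of the 200 regions together, and 24.1% of their distinct Cbp intervals were also in IgG. In first-run regions elsewhere that share was 1.79%. IgG intervals occupied 3.17% of the positions in later-run regions elsewhere and 0.661% in first-run regions elsewhere. The number of copies of a shared interval in Cbp followed that in IgG (Spearman's rho 0.83 over 2051 intervals, a description). Equal numbers of distinct intervals in both libraries give a ratio of 0.735 by the scaling alone, and the ratio of chromosome 9 counted once lies next to that value.

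Chromosome 12 repeated the pattern at a single place. The region chr12:3109851-3110263 held 85 Cbp and 90 IgG distinct intervals but 1587 and 2288 reads with copies, 28.1% and 39.2% of the reads in that first Mb. In the 3 regions of the chromosome, 81 intervals (78.6% of the distinct Cbp ones) were shared, with rho 0.88 between their copies. The ratio there was 0.749 (0.564 to 0.996) counted once and 0.574 (0.538 to 0.612) with all copies. Over the regions of chromosomes 9 and 12 together, Cbp exceeded scaled IgG in 3 of 41 (7.32%), and over all others in 98 of 159 (61.6%).

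**Figure D2:**
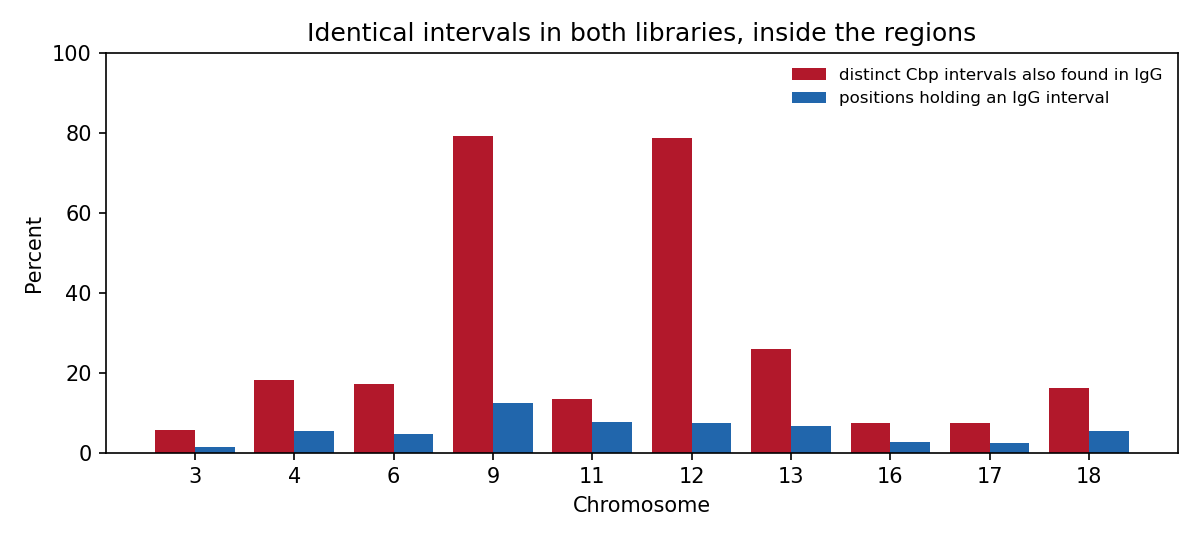
For the 10 chromosomes with at least 60 distinct Cbp intervals in their regions, the percent of those intervals also present in IgG (red) and the percent of positions that hold an IgG interval (blue). Chromosomes 9 and 12 stand at 79.3% and 78.6% shared, and the others at 26.0% or less.

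Chromosome 11 was dense, mostly without such stacks. Its 58 regions in chr11:3000268-3100137 spread over 99.9 kb that held 9073 Cbp and 6785 IgG distinct intervals, 24.6 and 25.2 times the autosomal median per 10 kb. These were 67.9% and 67.7% of the distinct reads in the chromosome's first Mb. The ratio over the stretch was 0.983 (0.952 to 1.01), an interval that includes 1. Over the 62 regions of the chromosome an interval occurred 1.16 times in Cbp and 1.30 times in IgG, and 13.4% of the Cbp intervals were shared. Copies were more frequent next to the 3 Mb mark. There chr11:3000268-3000673 held 70 Cbp and 87 IgG intervals from 169 and 216 reads, a ratio of 0.591 counted once. The region chr11:3001875-3002280 held 85 and 87 from 174 and 191 reads, a ratio of 0.718. By distinct Cbp intervals, the densest 10 kb of all autosome starts was chr11:3050001-3060000, with 1334 Cbp and 930 IgG reads. By distinct IgG intervals it was chr11:3060001-3070000, with 1331 and 991. By all copies it was chr9:3020001-3030000 in both libraries, with 7042 and 8699.

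**Figure D3:**
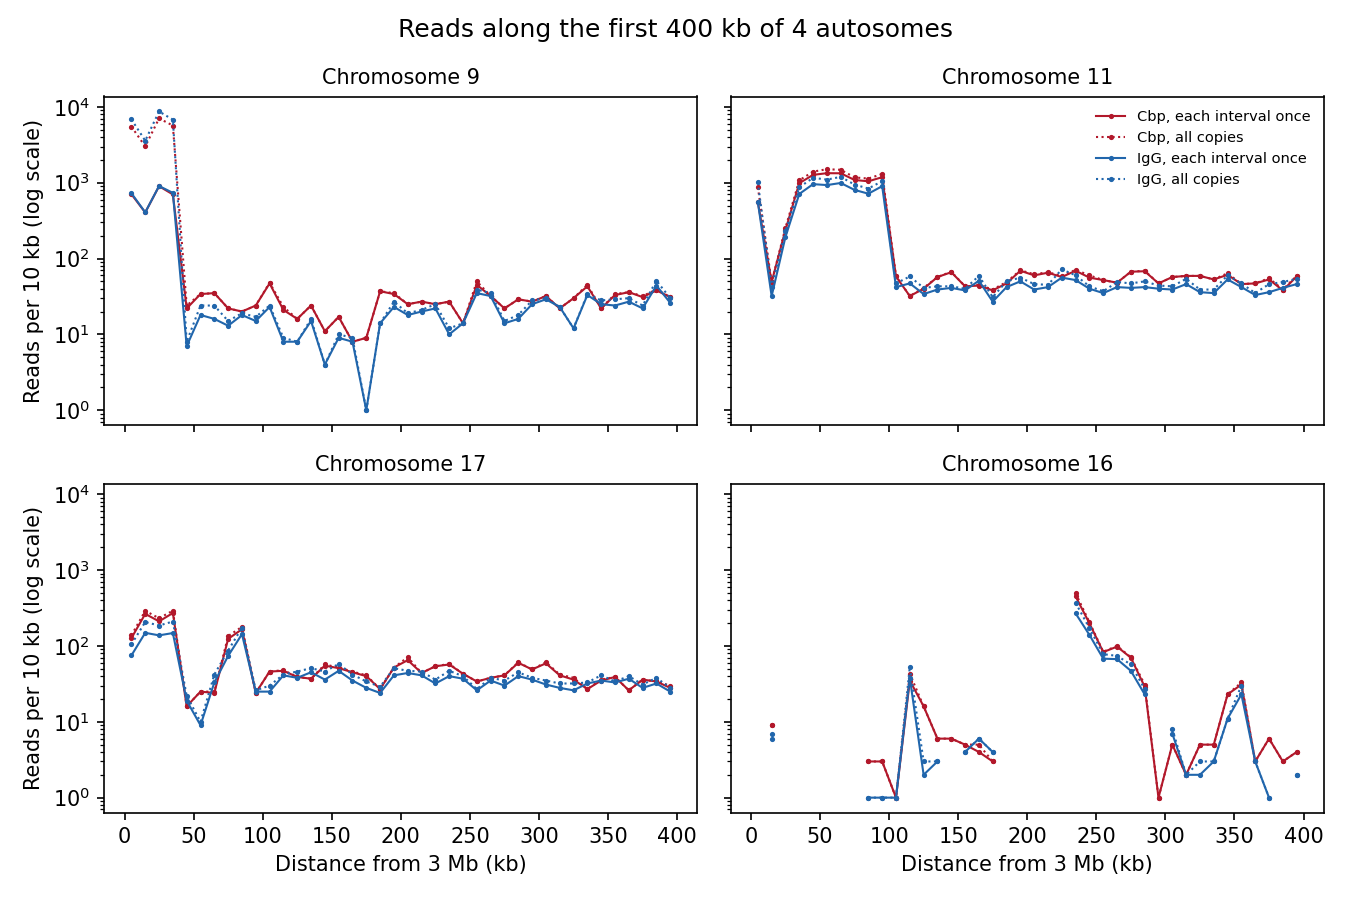
Reads per 10 kb (log scale) against the distance from 3 Mb for chromosomes 9, 11, 17 and 16, Cbp in red and IgG in blue, solid with each interval once and dotted with all copies; bins without a read are not drawn. Both libraries rise over the same bins, and solid and dotted lines part widely on chromosome 9, by far less on the others.

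Other autosomes had shorter or shallower stretches of the same kind. On chromosome 17, 27 regions in chr17:3006651-3084668 had 1168 Cbp and 741 IgG intervals, 4.05 and 3.52 times the median, and a ratio of 1.16 (1.06 to 1.27). On chromosome 16, 15 regions in chr16:3231428-3268440 had 819 and 534, a ratio of 1.13 (1.01 to 1.26). Chromosome 3 stood highest among the autosomes with at least 5 regions, with 15 regions in chr3:3000180-3032790, 513 and 266 intervals and a ratio of 1.42 (1.22 to 1.65). With all copies kept the ratios became 1.06 (0.977 to 1.16) on chromosome 17, 1.05 (0.952 to 1.17) on chromosome 16 and 1.28 (1.11 to 1.46) on chromosome 3, so that the first 2 intervals then included 1. Chromosomes 4, 18 and 13 held small dense clusters. The cluster chr4:3006372-3017958 had 781 and 592 intervals and a ratio of 0.969 (0.870 to 1.08). Its regions were unlike. The region chr4:3017556-3017958 had 106 and 107 intervals from 193 and 260 reads, a ratio of 0.728 (0.551 to 0.961) counted once. It was not called (exact-test adjusted p of 0.102), and the other regions of the cluster had ratios from 0.882 to 1.60. The cluster chr18:3004381-3011013 had 399 and 331 and a ratio of 0.886 (0.764 to 1.03). The cluster chr13:3371699-3373459 had 126 and 107 and a ratio of 0.865 (0.663 to 1.13). None of these 3 clusters as a whole differed from equality beyond counting error, while both libraries stood 16.3 to 22.5 times above the median. Kept copies moved the chromosome 4 cluster to 0.855 (0.784 to 0.932).

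The remaining autosomes with regions had only a few, 133 kb or more from the 3 Mb mark and mostly with few reads. On chromosome 2 the first of 3 regions lay 336 kb from the mark, and together they held 43 Cbp and 9 IgG intervals, a ratio of 3.51 (1.69 to 8.19). The 2 regions of chromosome 5 held 21 and 6, a ratio of 2.57 (1.00 to 7.79). None of the Cbp intervals on chromosomes 2 and 5 was found in IgG. IgG intervals occupied only 0.515% and 0.729% of the positions there, so this absence says little. Regions on chromosome 6 held 64 and 38 intervals, a ratio of 1.24 (0.816 to 1.90). Most of these lay in chr6:3151322-3151721, with 51 and 33, above the medians of 30 and 22 over the 200 regions. The regions on chromosome 8 held 45 and 34, a ratio of 0.973 (0.609 to 1.57). The single regions of chromosomes 10, 14 and 19 held 7 or 8 Cbp and 1 to 4 IgG intervals, too few to tell the libraries apart. Summed over a chromosome, the intervals of chromosomes 6, 8, 10, 14 and 19 thus included 1, although 1 region of chromosome 8 differed between the libraries on its own (chr8:3537592-3537991, described with the called peaks). On chromosome 14 the one region still carried 9.33% of the Cbp reads of a first Mb that was nearly empty.

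Few of the peaks at the starts passed a test between the libraries. In an exact conditional binomial test with Benjamini-Hochberg adjustment over all 4012 peaks and a threshold of 0.05, 5 of 472 (1.06%) had more Cbp than scaled IgG reads, against 8.5% of the whole list. More IgG reads were called in 10 of 472 (2.12%), against 1.6% of the list. At an unadjusted p below the same threshold the counts were 15 and 31 of 472, against 1032 and 99 of the 4012 peaks of the whole list. After merging, 3 of 200 regions were called higher in Cbp (background 11.3%) and 8 higher in IgG (background 1.26%). With all copies kept, 8 peaks were higher in Cbp (background 16.7%) and 95 in IgG (background 4.11%). These calls take copies as independent reads, which was not tested, and a place listed in both later runs enters as separate peaks.

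The 5 peaks higher in Cbp lay on 4 chromosomes. The peak chr16:3241018-3241417 had 36 Cbp and 7 IgG reads, a ratio of 3.78 (1.66 to 10.1) with an exact-test adjusted p of 0.0115. Its merged region chr16:3240699-3241417 had 50 and 20 reads and was not called, with a ratio of 1.84 and an exact-test adjusted p of 0.101. The peak chr11:3794950-3795349, away from the dense stretch, had 19 and 2 reads, a ratio of 6.98 (1.68 to 61.8) with an adjusted p of 0.0337. The peak chr17:3035263-3035662 had 21 and 3 reads and an adjusted p of 0.0425, which became 0.301 with all copies kept, where IgG had 10 reads. The peaks chr8:3537592-3537991 and chr11:3473131-3473530 each had 11 Cbp reads and 0 IgG reads, a ratio with an exact lower limit of 1.84 and an adjusted p of 0.0464. A count of 0 allows up to 3 reads, or 4.36e-05% of the IgG library. The merged region chr11:3473131-3473712 had 13 and 1 reads and was not called either, with an exact-test adjusted p of 0.0642.

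The 10 peaks higher in IgG were 8 on chromosome 9 and 2 on chromosome 11, and each place was listed in both later runs. The strongest, chr9:2999918-3000317, lay across the 3 Mb mark and had 188 Cbp and 209 IgG intervals, a ratio of 0.661 (0.540 to 0.809) with an exact-test adjusted p of 0.00233. With copies it had 2263 and 2701 reads. Its intervals occupied 47.0% of the positions in Cbp and 52.3% in IgG. On chromosome 11, chr11:3000274-3000673 had 70 and 87 intervals, a ratio of 0.591 (0.425 to 0.819) with an adjusted p of 0.0233. The peak with the most reads, chr9:3025332-3025731, had 126 and 129 intervals from 2433 and 3132 reads. It passed the threshold only with copies kept, where its ratio was 0.640 (0.606 to 0.675). The peak chr9:3001932-3002331 was the most stacked of the peaks with most reads: 41 Cbp and 40 IgG intervals carried 1848 and 2413 reads, or 45.1 and 60.3 copies each.

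First-run peaks with the most reads all lay in the dense stretch of chromosome 11. They were chr11:3065351-3065750 with 80 Cbp and 44 IgG intervals, chr11:3058349-3058748 with 81 and 42, and chr11:3042398-3042797 with 76 and 43. The ratios of these peaks lay between 1.30 and 1.42 and had exact-test adjusted p-values of 0.318, 0.231 and 0.377. With all copies kept the first of them was called higher in Cbp, with a ratio of 1.61 (1.12 to 2.34) and an exact-test adjusted p of 0.0458, and the others were not (0.0643 and 0.185). Large Cbp counts there stood beside large IgG counts.

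Read depth over the whole first Mb, inside and outside peaks, was not raised in the median autosome, but single autosomes lay on both sides. Relative to its chromosome's median Mb, the first Mb held 0.954 times as many distinct Cbp reads and 0.958 times as many IgG reads in the median autosome. Chromosome 11 reached 3.29 and 3.37 times. Chromosome 9 reached 1.45 and 1.71 times, and 6.66 and 9.51 times with all copies. Smaller rises included chromosome 17 (1.30 and 1.36 times), chromosome 12 (1.21 and 1.32) and chromosome 2 (1.16 and 1.21). Others lay below 1, such as chromosome 6 at 0.758 and 0.773. At the other end, chromosome 14 held 75 Cbp and 55 IgG reads in its first Mb, with reads in 83 of its 1000 windows of 1 kb. Summed over 19 autosomes, the first Mb had 76292 Cbp and 58139 IgG reads and a ratio of 0.964 (0.954 to 0.975), and 0.974 (0.963 to 0.985) without chromosome 9. Per autosome it ran from 0.852 on chromosome 9 to 1.07 on chromosome 3, with intervals above 1 on 1 autosome, below 1 on 7 and including 1 on 11. Beyond 4 Mb the ratio ran from 0.968 on chromosome 19 to 1.01 on chromosome 8. Chromosome 19 was among the 7, with 0.954 (0.910 to 0.999) in its first Mb, an interval that includes its own value beyond 4 Mb. The reads of chromosome 9 outside peaks alone had a ratio of 1.02. Over the first Mb of all autosomes, of 3607 windows of 1 kb tested, 0 passed in either direction with the exact binomial test (backgrounds 0.00323% and 0.0056%). Of these windows, 41 and 106 had an unadjusted p below the threshold, against 6658 and 10644 of all 464373 windows.

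**Figure D4:**
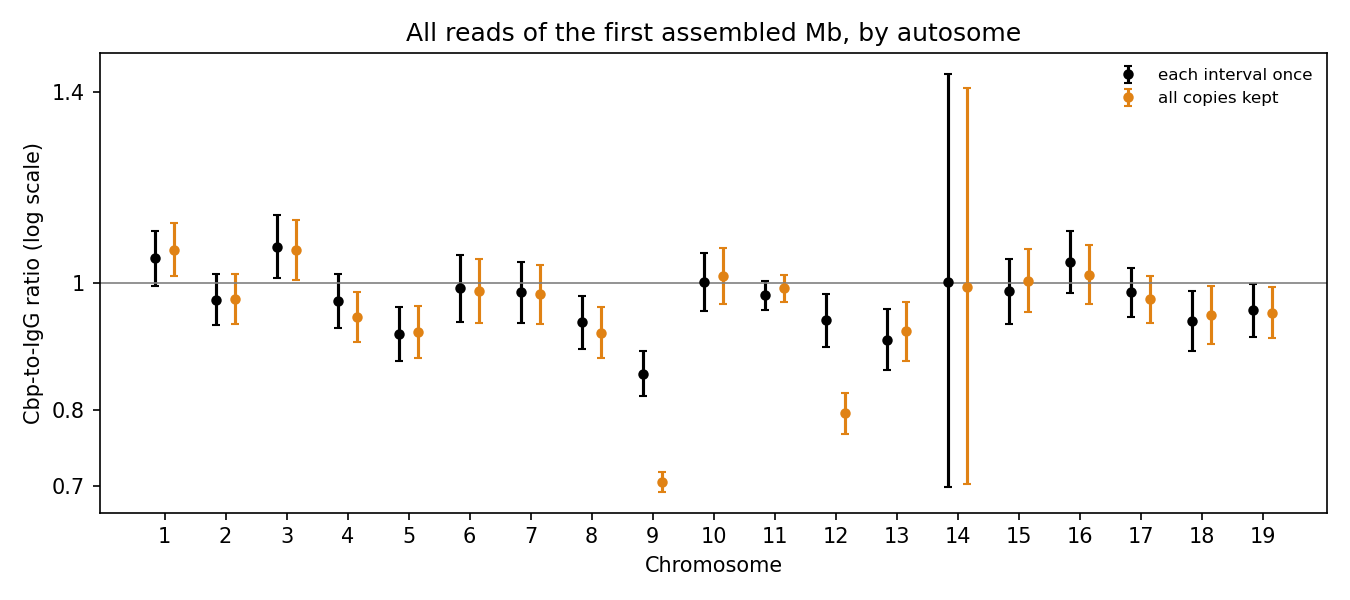
Ratio of Cbp to IgG reads (log scale, points with exact 95% intervals) over the first assembled Mb of each autosome, with each interval once (black) and all copies kept (orange). Chromosome 9 lies lowest at 0.852 and drops to 0.704 with copies, and chromosome 12 also drops with copies.

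Spacing along the chromosome 9 stretch could not be read as a repeat length. Interval midpoints recurred most at a distance of 208 bp in both libraries (autocorrelation 0.313 in Cbp and 0.330 in IgG), next to the interval length of 200 bp. The medians over all distances from 100 to 1000 bp were 0.0346 and 0.0361. The sequence of these regions was not read, because a genome of build mm9 was not used here, so which repeats or genes they hold is not given.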

How the data were processed

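The authors deposited each library as intervals on build mm9, per the submitters' processing notes, with chromosome, start and end (positions, no score), and the peaks as 4012 intervals of 400 bp. The sources used here name no aligner, no treatment of reads with several matches, no extension step and no peak caller. Interval midpoints were counted per peak, merged region, 1 kb window with 10 or more reads, and 10 kb bin, with intervals of the same start and end counted once or all kept. Nuclear reads outside peaks set the scale. Counts were compared with a two-sided exact conditional binomial test (smaller tail doubled), Benjamini-Hochberg adjusted at 0.05, and the calls were tested on simulated data. Ratios have exact Clopper-Pearson 95% intervals. Whether copies of an interval are independent molecules was not tested, so intervals and tests with copies kept may not cover the full counting error. Stretches join regions less than 50 kb apart. Named peaks were the 3 with most Cbp reads per run, up to 10 called each way, and those nearest the bounds. Regions, rules and tests were chosen with earlier results of these data known. Tests ran in scipy 1.17.1 under Python 3.11.15, tables in pandas 2.3.3 with numpy 2.4.6, and plots in matplotlib 3.10.9.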

Additional observations from a re-analysis of the deposited data

How the results depend on the processing

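The ratio over the 200 regions (0.930) became 0.727 with all copies, 0.885 and 0.871 over peaks of the second and last run, and 0.884 without chromosome 11. It lay above 1 over first-run peaks (1.21), without chromosome 9 (1.06), without 9 and 11 (1.12) and without 9 and 12 (1.06, an alternative chosen after seeing the data, as were those leaving out chromosomes for the calls and the later runs). The 5 peaks higher in Cbp became 8 with all copies, 0 at a threshold of 0.01 and 3 after merging; the 10 higher in IgG became 95 with all copies, 2 at 0.01, and 2 without chromosome 9 or without 9 and 12. The first-Mb ratio (0.964) became 0.881 with all copies and 0.980 over the first 2 Mb. Windows higher in IgG rose from 0 to 23 with all copies. Chromosome 9's first-Mb ratio (0.852) turned to 1.02 outside peaks. The later-run ratio (0.889) turned to 1.02 without chromosome 9. The cause of these changes was not tested. Of the other alternatives, 36 of the summary values and 67 of the single values moved by less than their error or by less than 1.5 times. No paired analysis was possible because the IgG and Cbp libraries carry no replicate numbers, and the numbered bone marrow samples were not analysed here. Depth limits peaks with few reads, and duplicates cannot be told from reads of opposite strands because strand is not in the files.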

Other observations

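The sex chromosomes were outside the rule. The X chromosome had no listed peak below 4 Mb, and its first Mb held 228 Cbp and 180 IgG distinct intervals. On the Y chromosome, chrY:2688241-2688640 had 9 Cbp and 6 IgG intervals, and 25 reads in each library with copies. The place chrY:2765604-2766003 had 19 and 21 intervals that carried 478 and 411 reads, with a ratio of 0.958 (0.837 to 1.10) when copies were kept. Both places were listed in the second and again in the last run.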
